A study of Mus musculus with 10 samples.

Results

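The enzymes described here make, split and spend arginine and ornithine: the arginases Arg1 and Arg2, the urea cycle and citrulline enzymes Ass1, Cps1 and Otc, the ornithine aminotransferase Oat, the polyamine enzymes Odc1, Sat1 and Amd1, and the inducible nitric oxide synthase Nos2. These 10 genes were taken by platform gene symbol, and 8 of them had a probe set among the 19505 genes measured. Ass1 and Amd1 were not analysed here. The genes were chosen by their role in the pathway with earlier results of these arrays known, among them the rise of Arg2, so the p-values below describe these arrays and are not independent support. The measured value named in the rule, the mean over all arrays, selects among several probe sets of a gene, and each of the 8 genes had 1.

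RNA came from BALB/c mouse small intestine organoids, cultures of intestinal epithelium grown in Matrigel. The pegtarazimod group (5 arrays) was exposed for 48 h to mouse TNF at 20 ng/ml together with pegtarazimod at 5 mg/ml, a peptide joined to PEG. The vehicle group (5 arrays) was exposed for 48 h to the same TNF together with PEG at 2.625 mM. Because TNF was present in both groups, each difference is between pegtarazimod and vehicle under TNF. The series design calls the 5 samples of a group biological replicates, but the sources do not say what differed between them. The p-values therefore measure the spread between these samples. In both groups the arrays fell into a pair, replicates 1 and 2, and the remaining replicates 3 to 5, although the labels name no batch. Over genes, deviations from the group means correlated between the groups at 0.21 to 0.31 for replicates 1 and 2, at 0.04 to 0.23 for replicates 3 to 5, and at -0.28 to -0.10 across the subsets. Levels are log2 expression, on which a difference of 1 is a doubling, and a level of 1 probe set is not set against that of another.

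In the small intestine, enterocyte mitochondria are known for making citrulline. Ornithine, formed from glutamine and proline or released from arginine by arginase, is joined to carbamoyl phosphate by ornithine transcarbamylase, and the kidney turns the exported citrulline into arginine. Ornithine is also the starting material of the polyamines, which dividing crypt cells need, and arginine is the substrate that nitric oxide synthase and arginase share.

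With pegtarazimod, 2 of the 8 measured enzymes rose, the mitochondrial arginase gene Arg2 and the ornithine transcarbamylase gene Otc, and 1 fell, the nitric oxide synthase gene Nos2. The other 5 did not pass the test (limma, Benjamini-Hochberg adjusted p below 0.05 over all genes). Among all genes 4.89% passed in either direction, 2.5% as higher and 2.39% as lower. The median difference over the 8 enzymes was 0.04, against 0.003 over all genes. The groups did not overlap for Arg2 and Otc, as for 3.35% of all genes in the higher direction.

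**Figure D1:**
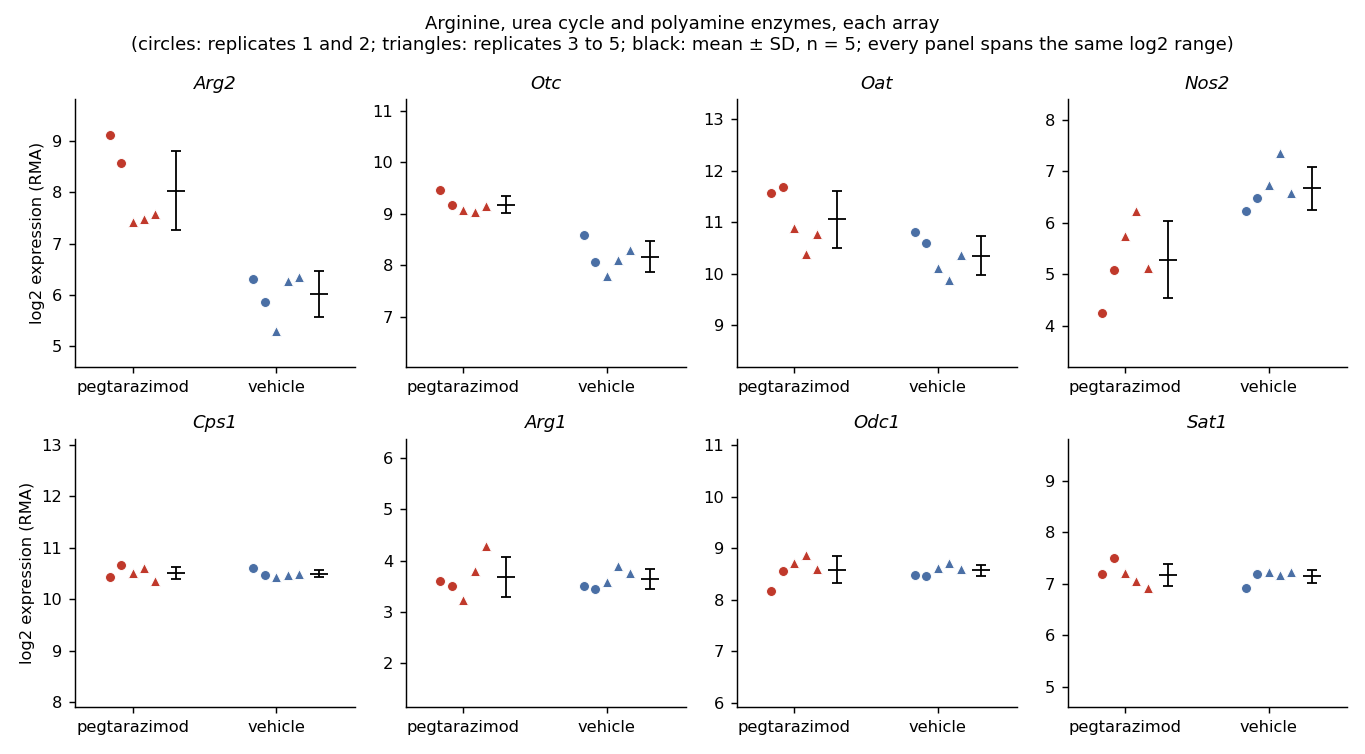
Log2 expression of the 8 measured enzymes on each array (points; circles for replicates 1 and 2, triangles for replicates 3 to 5), pegtarazimod left of vehicle, with the mean ± SD of the 5 arrays of each group. The pegtarazimod arrays of Arg2 and Otc all lie above the vehicle arrays, those of Nos2 lie lower except pegtarazimod 4, which is level with vehicle 1, and those of Cps1, Arg1, Odc1 and Sat1 overlap the vehicle arrays.

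Arg2 encodes the mitochondrial arginase, which splits arginine into ornithine and urea. Its level was 9.10, 8.57, 7.41, 7.47 and 7.58 on pegtarazimod arrays 1 to 5, against 6.31, 5.87, 5.30, 6.27 and 6.35 on vehicle arrays 1 to 5. Every pegtarazimod array was above every vehicle array, and pegtarazimod 1 and 2 were above pegtarazimod 3 to 5. The difference was 2.01 ± 0.31 (SE), a 4.02-fold rise (limma adjusted p = 0.00272).

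Arg1 encodes the cytosolic arginase, the urea cycle enzyme of liver. It lay between 3.24 and 4.28 on pegtarazimod arrays and between 3.44 and 3.90 on vehicle arrays, and 4 of the 5 arrays in each group were below that array's lower quartile of all genes (3.84 to 3.90). No detection calls were used, so such a level cannot be told from background. The difference of Arg1 was 0.05 (limma 95% interval -0.30 to 0.39).

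Otc encodes ornithine transcarbamylase, which makes citrulline in the mitochondrial matrix. Its level was 9.46, 9.16, 9.07, 9.03 and 9.15 on pegtarazimod arrays 1 to 5, against 8.58, 8.06, 7.79, 8.10 and 8.30 on vehicle arrays 1 to 5. The lowest pegtarazimod array was above the highest vehicle array. Otc rose by 1.01 ± 0.14 (SE), or 2.01-fold (limma adjusted p = 0.00133).

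Cps1 encodes the carbamoyl phosphate synthetase that supplies Otc with its other substrate. It lay between 10.35 and 10.66 on pegtarazimod arrays and between 10.43 and 10.61 on vehicle arrays, so the groups overlapped. The difference was 0.01 (limma 95% interval -0.17 to 0.20), and this interval does not reach the difference of Otc. Asl, which releases arginine from argininosuccinate, differed by 0.03 (-0.19 to 0.24).

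The other genes around the citrulline step came from a list of 6, all measured, of which 2 rose, 0 fell and 4 did not pass. Among all genes 2.5% rose and 2.39% fell, and the counts of the lists below can be read beside these shares. Nags, whose product makes the acetylglutamate that Cps1 needs as its activator, was at 7.99, 8.02, 7.92, 7.63 and 7.86 on pegtarazimod arrays, against 7.09, 6.76, 6.27, 6.47 and 6.55 on vehicle arrays. The groups of Nags did not overlap, and it rose by 1.25 ± 0.14 (SE; 2.39-fold, limma adjusted p = 3.07e-04). Slc25a15, the carrier that exchanges ornithine and citrulline across the inner mitochondrial membrane, lay between 9.10 and 9.79 on pegtarazimod arrays and between 8.28 and 8.96 on vehicle arrays. It rose by 0.80 ± 0.15 (SE; 1.75-fold, limma adjusted p = 0.00911), also without overlap.

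Otc, Nags and Slc25a15 rose while Odc1, an enzyme that also uses ornithine, showed no difference past the test. The 250 bases before the start of these 4 genes (RefSeq, GRCm38.p6; the first of 2 listed starts for Slc25a15) are shown 5′ to 3′ in the direction of each gene, to compare their promoters. Promoter entries matched 6 of the 10 enzymes (Amd1, Ass1, Oat, Odc1, Otc and Sat1). Capitals mark matches on either strand to AAAGTNCA, part of the element of HNF4A, a nuclear receptor of hepatocytes and enterocytes known to act on the Otc promoter in rat, or to CACGTG, the E-box bound by Myc.
Otc, chrX:10252055-10252304, forward strand: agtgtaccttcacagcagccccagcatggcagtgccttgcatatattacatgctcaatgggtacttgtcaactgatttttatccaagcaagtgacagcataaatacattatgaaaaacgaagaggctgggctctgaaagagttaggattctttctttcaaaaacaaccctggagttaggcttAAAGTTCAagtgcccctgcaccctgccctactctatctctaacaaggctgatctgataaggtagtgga
Nags, chr11:102145263-102145512, forward strand: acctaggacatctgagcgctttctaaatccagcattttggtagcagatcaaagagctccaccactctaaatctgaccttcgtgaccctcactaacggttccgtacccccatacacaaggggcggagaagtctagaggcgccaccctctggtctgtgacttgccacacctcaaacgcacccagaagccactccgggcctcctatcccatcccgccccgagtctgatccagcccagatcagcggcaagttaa
Slc25a15, chr8:22398622-22398871, reverse strand: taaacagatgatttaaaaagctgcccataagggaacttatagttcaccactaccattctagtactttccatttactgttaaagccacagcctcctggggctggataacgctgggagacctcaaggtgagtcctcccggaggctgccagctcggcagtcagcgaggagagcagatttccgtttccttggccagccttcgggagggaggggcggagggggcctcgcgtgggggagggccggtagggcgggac
Odc1, chr12:17544623-17544872, forward strand: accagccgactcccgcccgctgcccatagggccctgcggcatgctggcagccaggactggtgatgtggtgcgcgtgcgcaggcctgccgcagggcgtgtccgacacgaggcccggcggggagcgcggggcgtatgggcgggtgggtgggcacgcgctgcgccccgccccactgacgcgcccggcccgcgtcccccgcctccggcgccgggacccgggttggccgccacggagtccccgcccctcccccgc
The Otc window held 1 match, AAAGTTCA, which begins 68 bases before the start, and the other 3 windows held 0 matches to either motif. Of 32851 listed promoter windows of this length, 3.53% held AAAGTNCA and 6.02% held CACGTG. A match is a description of letters and not a measured site. For these 4 genes no bases outside the windows shown were examined, so 0 matches does not mean that a gene lacks the motif.

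Oat encodes ornithine aminotransferase, which links ornithine to glutamate and proline. Its level was 11.57, 11.69, 10.89, 10.39 and 10.76 on pegtarazimod arrays 1 to 5, against 10.81, 10.59, 10.10, 9.89 and 10.37 on vehicle arrays 1 to 5. The groups overlapped, since pegtarazimod 4 and 5 lay within the range of the vehicle arrays. The difference was 0.71 ± 0.24 (SE) and did not pass over all arrays without a block (limma adjusted p = 0.108, 95% interval 0.20 to 1.21). Also over all arrays, it passed with the subsets of replicates as a block (adjusted p = 0.00218) and with the replicate numbers as a block (0.00221). Within replicates 1 and 2 it was 0.92 (adjusted p = 0.0107), and within replicates 3 to 5 it was 0.56 (0.0686). Both values come from 1 fit to all arrays, so their p-values use a spread pooled over both subsets.

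Of 14 listed genes of the route between glutamine, glutamate, proline and ornithine, 8 were measured, of which 2 rose and 0 fell. The alanine transaminase gene Gpt was 1.71-fold higher (5.96 ± 0.24 with pegtarazimod, 5.19 ± 0.17 with vehicle; SD, n = 5 each; limma adjusted p = 0.00353). The cytosolic aspartate transaminase gene Got1 was 1.24-fold higher (adjusted p = 0.0308), but this call was lost without any of 6 arrays and within each subset of replicates (1 and 2, or 3 to 5), with an adjusted p of up to 0.202. Aldh18a1, which makes the pyrroline carboxylate that Oat turns into ornithine, differed by 0.29 (limma 95% interval -0.004 to 0.59).

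Nos2 encodes the inducible nitric oxide synthase, which turns arginine into nitric oxide and citrulline and is known as an NF-kB target. Its level was 4.25, 5.09, 5.74, 6.23 and 5.12 on pegtarazimod arrays 1 to 5, against 6.23, 6.49, 6.73, 7.35 and 6.57 on vehicle arrays 1 to 5. The groups met at a single value, where pegtarazimod 4 was 6.228 and vehicle 1 was 6.227. Nos2 fell by 1.39 ± 0.30 (SE), or 2.62-fold (limma adjusted p = 0.0171), and its adjusted p was 0.0547 with an intensity trend and robust priors.

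Of 10 other genes of nitric oxide, methylarginine and agmatine, all measured, 1 rose and 0 fell. Agmat, named for the hydrolysis of agmatine, was 1.42-fold higher (8.40 ± 0.24 with pegtarazimod, 7.89 ± 0.20 with vehicle; SD, n = 5 each; limma adjusted p = 0.0369). Its call was lost without any of 5 arrays and within replicates 3 to 5, with an adjusted p of up to 0.0940. Ddah1, which breaks down methylated arginines that inhibit nitric oxide synthases, differed by -0.98 without passing over all arrays (limma adjusted p = 0.131). It passed within replicates 1 and 2 (-1.22, adjusted p = 0.0123), and its difference within replicates 3 to 5 was -0.82 (0.0517). The neuronal and endothelial synthase genes Nos1 and Nos3 differed by -0.08 and -0.14. Nos1 was dim (mean 3.98 with pegtarazimod and 4.06 with vehicle), below the lower quartile of all genes on 1 pegtarazimod and 0 vehicle arrays, which limits its value.

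Odc1 encodes ornithine decarboxylase, the first enzyme of polyamine synthesis. Its level was 8.16, 8.56, 8.72, 8.87 and 8.60 on pegtarazimod arrays 1 to 5, against 8.47, 8.47, 8.62, 8.72 and 8.60 on vehicle arrays 1 to 5. The vehicle arrays lay within the range of the pegtarazimod arrays, where pegtarazimod 1 was lowest. The difference was 0.01 (limma 95% interval -0.25 to 0.27), so a change of Odc1 as large as that of Otc lies outside the interval.

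Sat1 encodes the acetyltransferase that marks spermidine and spermine for breakdown or export. It lay between 6.92 and 7.50 on pegtarazimod arrays and between 6.91 and 7.23 on vehicle arrays. The groups overlapped, and the difference was 0.03 (limma 95% interval -0.21 to 0.27).

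The 4 lists of other polyamine genes held 22 genes, of which 19 were measured. In these lists 0 genes passed the limma test. The unadjusted limma p was below 0.05 for 7 of the 19 measured genes, a larger share than over all genes (19%). The spermine synthase gene Sms differed by -0.40 (6.70 ± 0.23 with pegtarazimod, 7.10 ± 0.14 with vehicle; SD, n = 5 each; limma adjusted p = 0.0624), and the spermidine synthase gene Srm by -0.21 (0.473). Sms passed under 4 alternatives, among them array weights and the subsets of replicates as a block. The solute carrier gene Slc12a8 differed by 0.31 (adjusted p = 0.0605), did not overlap between the groups, and passed under 5 alternatives. Mat2b, of the polyamine synthesis and methyl donor list, was lower without overlap (-0.255, limma adjusted p = 0.117). In these lists 1 gene was higher without overlap and 1 lower, where 653 and 656 of all 19505 genes were. The antizyme inhibitor gene Azin1 differed by 0.19 (0.223), and Eif5a2, whose product carries the spermidine-derived hypusine, by -0.33 (0.191). Eif5a2 was below the lower quartile of all genes on 5 pegtarazimod and 4 vehicle arrays, levels that cannot be told from background. Amd2, a gene for which the RefSeq gene table lists Amd1 as an older symbol, differed by 0.05 (limma 95% interval -0.23 to 0.32). Whether its probe set also takes up Amd1 transcript was not tested.

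**Figure D2:**
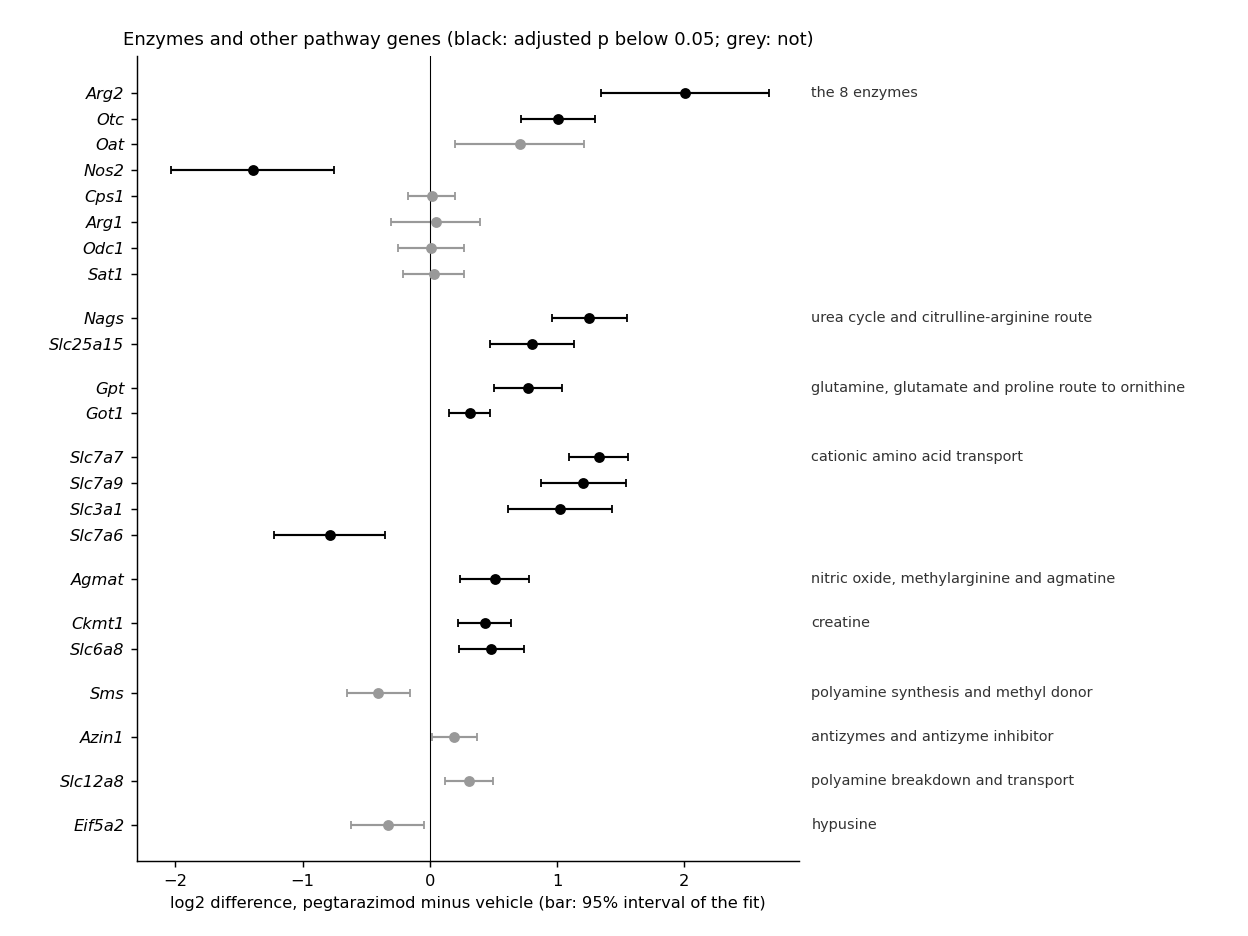
Log2 difference, pegtarazimod minus vehicle, of the 8 enzymes and 15 named genes of 9 pathway lists (points), with the 95% interval of the limma fit (bars); black marks an adjusted p below 0.05 and grey the rest. Of the 8 enzymes Arg2, Otc and Nos2 are black, and every named gene of the 4 polyamine lists is grey.

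Transport genes for arginine and other cationic amino acids moved in both directions. Of 8 listed and measured, 3 rose and 1 fell. Slc7a7, the light chain that exports arginine across the basolateral membrane, was 2.51-fold higher (8.24 ± 0.14 with pegtarazimod, 6.91 ± 0.19 with vehicle; SD, n = 5 each; limma adjusted p = 3.57e-05). Slc3a2, also on this list, differed by 0.007 without passing (mean 10.20 with pegtarazimod and 10.19 with vehicle, limma adjusted p = 0.978). Whether arginine export changed was not tested. Slc7a9 and its partner Slc3a1, the subunits of the apical carrier for cystine and cationic amino acids, were 2.31-fold and 2.03-fold higher (adjusted p = 0.00101 and 0.00777). Slc7a6, another gene of this transport list, was 1.72-fold lower (limma adjusted p = 0.0408). Its call was lost without any of 7 arrays and with an intensity trend, with an adjusted p of up to 0.107. The arginine importer gene Slc7a1 differed by -0.18 over all arrays, which averages -0.61 within replicates 1 and 2 (limma adjusted p = 0.0299) and 0.10 within replicates 3 to 5 (0.770). The importer gene Slc7a2 was below the lower quartile of all genes on all 10 arrays, so its difference of -0.12 cannot be told from background.

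Of 5 creatine genes 2 rose and 0 fell. Creatine synthesis is known to draw on arginine through Gatm, which differed by 0.02. Gatm was dim, below the lower quartile of all genes on 3 pegtarazimod and 0 vehicle arrays, which limits this value. The mitochondrial creatine kinase gene Ckmt1 was 1.35-fold higher (limma adjusted p = 0.0232) and the creatine transporter gene Slc6a8 1.40-fold higher (0.0338). The call of Ckmt1 was lost without any of 4 arrays and within each subset of replicates, and that of Slc6a8 without any of 6 arrays and within replicates 3 to 5, with adjusted p of up to 0.0855 and 0.102.

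Over the 9 lists together, 56 of 65 genes were measured, of which 10 rose, 1 fell and 45 did not pass. Among all genes 2.5% rose and 2.39% fell. The median difference over the lists was 0.05, against 0.003 over all genes. The number that passed was 6 without pegtarazimod 1, pegtarazimod 2, vehicle 3 or vehicle 4, and 7 without vehicle 5 or within replicates 3 to 5. Nags, Slc25a15, Gpt, Slc7a7, Slc7a9 and Slc3a1 passed under every alternative in which they were tested. Of the 45 that did not pass, 3 passed within replicates 1 and 2 (Slc7a1, Ddah1 and the creatine kinase gene Ckb) and 0 within replicates 3 to 5.

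Among the 8 enzymes, 4 passed within replicates 1 and 2 (Arg2, Otc, Oat and Nos2), where 6.3% of all genes passed, and 3 within replicates 3 to 5 (Arg2, Otc and Nos2), where 3.34% did. Arg2 differed by 2.75 within replicates 1 and 2 and by 1.52 within replicates 3 to 5, Otc by 0.98 and 1.02, and Nos2 by -1.69 and -1.19.

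The difference between the subsets was itself tested as an interaction. With limma 0 of the 8 enzymes passed (the lowest adjusted p was 0.406, for Arg2), where 0.0256% of all genes passed. The unadjusted p was below 0.05 for 2 of the 8, Arg2 and Sat1, and for 7.65% of all genes. The interaction of Arg2 was 1.23 on the log2 scale. The subset differences of Odc1 were -0.11 (replicates 1 and 2) and 0.09 (the others), and those of Sat1 0.29 and -0.15, all without passing.

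**Figure D3:**
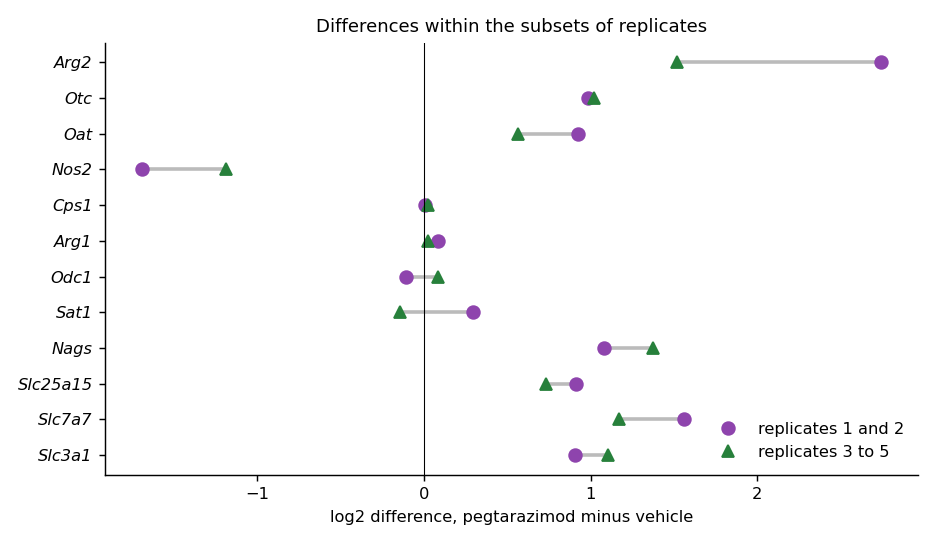
Log2 difference, pegtarazimod minus vehicle, within replicates 1 and 2 (circles) and within replicates 3 to 5 (triangles) for the 8 enzymes, Nags, Slc25a15, Slc7a7 and Slc3a1. The subsets nearly coincide for Otc (0.98 and 1.02) and lie furthest apart for Arg2 (2.75 and 1.52).

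For the 3 enzymes that passed, the genes with the nearest profile were found by the root mean square difference over the 10 arrays, after each gene was centred on its own mean. Nearest to Arg2 were Clec2h (0.14), the goblet cell lectin gene Zg16 (0.19) and the cytochrome P450 gene Cyp2c38 (0.27). Nearest to Otc were the zinc transporter gene Slc39a5 (0.13), the drug efflux pump gene Abcb1a (0.16) and Cyp2c68 (0.16). Nearest to Nos2 were the Eph receptor gene Epha4 (0.25), the actin bundling gene Pls3 (0.28) and the claudin gene Cldn4 (0.28). These distances describe these 10 arrays, which the genes share, and say nothing of function or control.

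**Figure D4:**
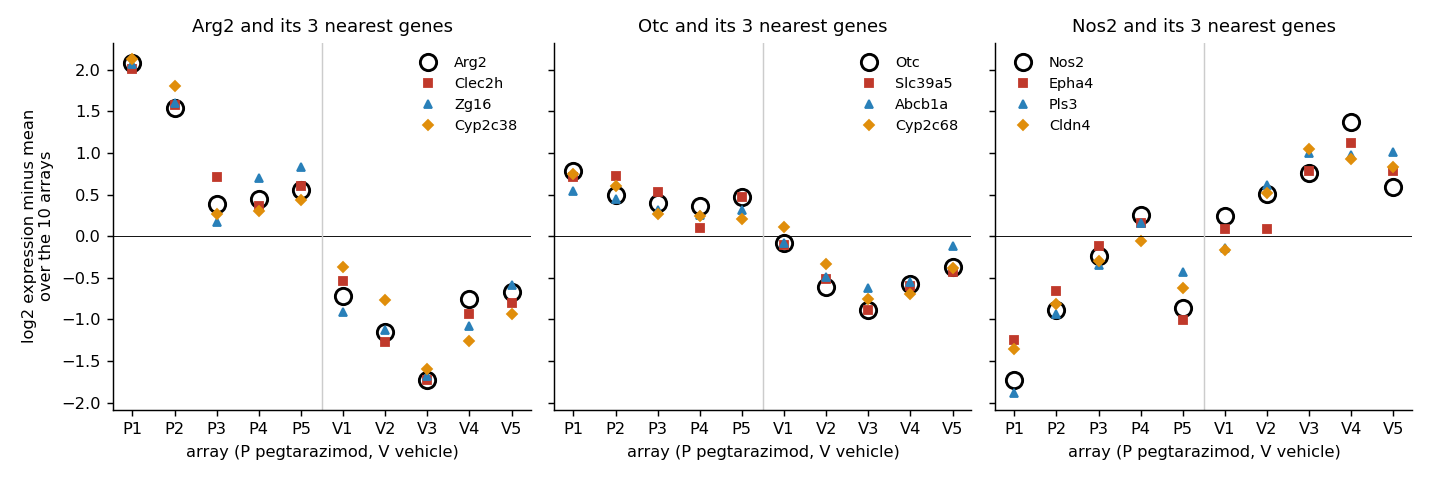
Log2 expression minus the gene's mean over the 10 arrays (vertical axis) on each array (P1 to P5 pegtarazimod, V1 to V5 vehicle) for Arg2, Otc and Nos2 (open black circles) and the 3 genes nearest to each (coloured points). Arg2 and its neighbours are highest on P1 and P2, and Nos2 and its neighbours are lowest on P1.

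Cell type markers moved with the group, and their part in the enzyme differences was not tested. In bulk RNA, fewer cells of a type and less RNA per cell cannot be told apart. Of 19 measured enterocyte markers 6 rose and 0 fell, and the mean level of the list was 8.99 to 9.99 on pegtarazimod arrays and 8.35 to 8.87 on vehicle arrays. Each of the 19 differed by more within replicates 1 and 2 than within replicates 3 to 5. For Fabp2 the differences were 1.418 and 1.005, and for the fructose transporter gene Slc2a5 1.36 and -0.03. None passed the limma test of the interaction (lowest adjusted p = 0.2745, for Slc2a5). Of 14 crypt stem cell markers 11 fell and 0 rose (mean level 7.58 to 8.18 with pegtarazimod, 8.80 to 9.11 with vehicle). Of 20 proliferation markers 7 fell and 0 rose (7.91 to 8.63 with pegtarazimod, 8.75 to 8.95 with vehicle). Among all genes 2.5% rose and 2.39% fell. The median difference was 0.69 over the enterocyte markers (0.06 to 2.47), -0.99 over the stem cell markers (-1.81 to -0.20) and -0.44 over the proliferation markers (-0.83 to -0.02). The markers with the smallest p in these lists were the fatty acid binding protein gene Fabp2 (1.17), the stem cell factor gene Ascl2 (-1.80) and the topoisomerase gene Top2a (-0.50). A larger difference within replicates 1 and 2 was not particular to the enterocyte markers. Each of the 20 proliferation markers had a lower difference there than within replicates 3 to 5 (for Mcm4 -1.20 and -0.58). So did most of the 14 stem cell markers. The share of all genes with such a lean was not counted.

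Nos2 and the arginases are also known from macrophages, so leukocyte markers were read beside them. Of 10 measured macrophage and leukocyte markers 0 passed the limma test and 1 had an unadjusted p below 0.05, where 19% of all genes did. Their mean level was 4.14 to 4.32 on pegtarazimod arrays and 4.11 to 4.35 on vehicle arrays, where the lower quartile of all genes was 3.84 to 3.90. Some markers were brighter than this mean. Cd14 lay between 4.87 and 6.87 with pegtarazimod and between 5.67 and 7.09 with vehicle, and differed by -0.48 (limma adjusted p = 0.5205). The pan-leukocyte gene Ptprc lay between 3.77 and 4.33 with pegtarazimod and between 3.83 and 4.50 with vehicle. The marker with the smallest p, the integrin gene Itgam, differed by 0.39 (limma adjusted p = 0.263). It was below the lower quartile on 1 pegtarazimod and 5 vehicle arrays. Of 8 epithelial markers, all measured, 1 rose and 0 fell, with differences of -0.47 to 0.33 and a median of 0.11. The one that rose was the keratin gene Krt19 (0.33, limma adjusted p = 0.0350), which passed within neither subset of replicates, and the keratin gene Krt18 had the lowest difference (-0.47, 0.140). The adhesion gene Epcam lay between 10.74 and 10.85 with pegtarazimod and between 10.63 and 10.76 with vehicle.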

How the data were processed

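Expression was measured on 10 single-colour arrays, 5 per group, grouped by the sample titles. The deposited table gives a log2 value for each probe set, made with oligo and RMA per the submitters' processing notes, which name neither versions, annotation nor build here. RMA equalises the distributions of arrays, so a shift of most genes together is hidden. Of 22203 probe sets, 19572 had 1 symbol, 0 several and 2631 none, giving 19505 genes, of which 55 had several probe sets (the highest mean was used). All 19572 identifiers were found in RefSeq's GRCm38.p6 gene table, used for names. Array medians were 5.60 to 5.66, and array correlations 0.973 to 0.994 over all genes, with at most 2 identical values in a pair. Their number limits the precision.

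Differences (pegtarazimod minus vehicle) came from limma 3.58.1 (R 4.3.3) without covariates, with p-values adjusted by Benjamini-Hochberg over all genes. The fit was also run on simulated arrays with known changes. Those arrays were drawn independently, without the subsets of replicates seen here, so that run does not bear on the subsets. The enzymes and lists were chosen with earlier results of these data known. Named were all measured enzymes, up to 4 passing genes of each pathway list (otherwise the 1 with the smallest p), up to 3 markers of each list with the smallest p, and 3 nearest profiles per passing enzyme. Asl, Aldh18a1, Ddah1, Nos1, Nos3, Srm, Amd2, Mat2b, Slc7a1, Slc7a2, Slc3a2, Gatm, Ckb, Slc2a5, Ptprc and Epcam fall outside this rule and were chosen after their values were seen. Alternatives were other normalisations, dim-gene filters, priors, array weights, blocks, subsets, probe set rules and leaving out each array. Figures used Python 3.11.15 and matplotlib 3.10.9.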

Additional observations from a re-analysis of the deposited data

Results flagged for a closer look

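Among 46 groups of 5 arrays (23 genes in each group), 1 held an array far from the others. Sat1 was 6.91 on vehicle 1, the lowest of its group, against 7.17 on the nearest vehicle array, and this gap was 0.81 of the group's range. The criterion flags about 5% of groups by chance.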

How the results depend on the processing

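Over 22 alternatives the number of enzymes that passed was 2 to 4, against 3 over all arrays. Arg2 (1.52 to 2.75) and Otc (0.91 to 1.11) passed under all 22 and kept their direction. Nos2 (-1.69 to -1.13) passed under 21 and had an adjusted p of 0.0547 with an intensity trend and robust priors, for which the cause was not tested. Oat (0.55 to 0.92) passed with the replicate block, with the subset block, within replicates 1 and 2 and without pegtarazimod 4. Arg1, Cps1, Odc1 and Sat1 passed under 0 alternatives in which they were tested, and changed sign under 2, 4, 6 and 3.

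All genes that passed numbered 954, and 437 to 1245 on leaving out an array (437 without vehicle 3). The number was 1606 with the replicate block, 1820 with the subset block and 651 within replicates 3 to 5. Other pathway genes that passed numbered 11, and 6 to 12 on leaving out an array, 13 with the replicate block, 15 with the subset block and 7 within replicates 3 to 5. The cause of these changes in number was not tested. Replicate numbers did not meet the criterion for pairing, a correlation of deviations over 0.1 in each of the 5 pairs (0.099 to 0.310). Own-number correlations were the highest for 4 of 5 pegtarazimod and 4 of 5 vehicle arrays. The replicate block moved the count of enzymes to 4 by adding Oat. The interaction between subsets passed for 0 enzymes under all 18 settings run. Dim signal limits Arg1, Nos1, Slc7a2, Eif5a2, Gatm and Itgam.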
